A study of Mus musculus with 16 samples.

Results

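Mouse macrophages given heme-albumin at 50 µM for 8 h were compared with untreated macrophages at 0 h. The comparison rests on 8 of the 16 arrays of the series, the 4 titled HemeAlb50 and the 4 titled Control, and every gene measured on them was examined. The cells were macrophages grown from murine stem cells, each group has 4 independent replicates lettered a to d, and RNA of each sample was labelled red and hybridised beside green-labelled RNA of untreated cells. On the control arrays both colours carried untreated RNA. The other groups, used here only beside the genes that responded, had 8 h of heme-albumin at 200 µM or of lipopolysaccharide (LPS, a bacterial wall component that activates macrophages) at 10 ng/mL, with 4 arrays each. The titles add a tag to each letter, the same in every group (M98, M99, ML and MR for a to d), and the labels do not say what the tags mean, nor name a strain or sex. The control differs from the treated cells in heme, in albumin and in 8 h of culture, so these cannot be told apart here. Each group also kept the same position on every slide, and position and group cannot be told apart either.

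Heme is the iron-holding ring of hemoglobin, and macrophages of the spleen and liver meet it in bulk when they digest old red blood cells. They carry it out of the phagosome, open the ring with heme oxygenase, and store the freed iron in ferritin or export it through ferroportin. Heme also relieves the repressor BACH1, which holds down genes that are switched on by the factor NRF2, among them heme oxygenase itself and many genes of glutathione and thioredoxin metabolism. Whether heme in addition acts as an inflammatory signal on macrophages is the question in the series' title.

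All values are log2 ratios of red over green, and a change is the mean of the 50 µM arrays minus the mean of the control arrays, given ± its standard error from limma (n = 4 and 4 unless a spot was left out). Adjusted p-values are limma's with Benjamini-Hochberg adjustment over 12759 genes. A gene is called at an adjusted p under 0.05 and at least 2-fold, and is said to have passed at an adjusted p under 0.05 whatever its fold. Across the 8 arrays 50.1 to 59.1 percent of probes were well above background in red and no spot was saturated. Correlations between arrays over all genes ran from 0.427 to 0.668 within the control and from 0.591 to 0.771 within the 50 µM group, and the scanner software rated 4 of the 8 arrays (control a, c and d, 50 µM d) as needing evaluation. Of 20 macrophage markers 19 were measured, each above background on all 8 arrays, and the other, Cd68, has no named probe. Of 10 embryonic stem cell markers 6 were above background on all arrays of at least 1 group, Nanog and Esrrb among them. The others, Pou5f1, Sox2, Zfp42 and Dppa5a, were below background on at least 1 array of every group.

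Few genes were called at this dose, and genes of iron and heme handling had the largest changes in both directions. Of 12759 genes 47 were called (0.368 percent), 37 higher (0.29 percent) and 10 lower (0.0784 percent). From the red channel alone the split was 32 higher and 4 lower. Fitted changes were at least 4-fold in 6 genes that rose and in 1 that fell, Tfrc, but 1 of the 6, Wfikkn2, was too dim in the control for more than a bound of at least 1.3-fold. Slc22a23 and Aox1, also among the 6, were above background on 2 and 3 of 4 control arrays. Their changes were under 2-fold with normexp background correction (0.824 and 0.879). At any fold 264 genes passed as higher (2.07 percent) and 185 as lower (1.45 percent), or 84 and 28 from the red channel alone, 152 and 121 under normexp background correction and 647 and 616 when only these 8 arrays were fitted. Leaving out 1 of the 8 arrays gave 178 to 256 higher and 107 to 155 lower, with 109, 108 and 107 lower without control array b, c or d and 114 and 113 without 50 µM array c or d. The 10 called lower became 6 without control array b and 5 without control array c. The median change over all genes was −0.0122, and 5785 of the 12759 lay above 0. In each of the 47 called genes the 4 control and the 50 µM values did not overlap, which was also so for 19.2 percent of all genes.

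**Figure D1:**
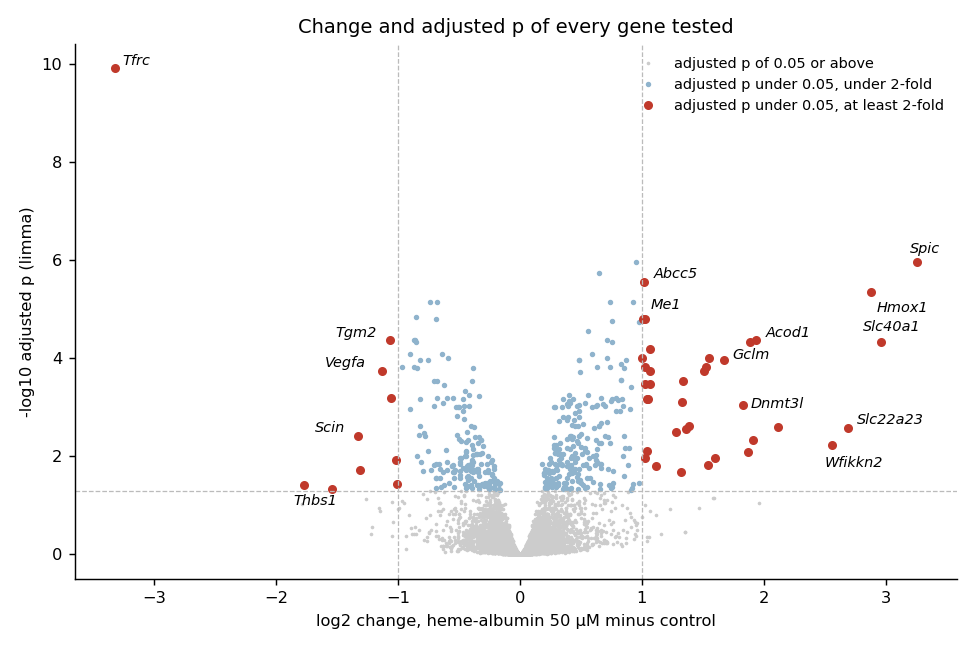
Log2 change at 50 µM against control (x axis) and −log10 of limma's adjusted p (y axis) for each of 12759 genes, with dashed lines at 2-fold and at an adjusted p of 0.05. Red points are the 37 genes called higher and the 10 called lower, blue points passed below 2-fold, and Tfrc stands alone at the upper left.

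Of 7 genes in a short list of splenic iron-recycling genes 5 were measured. Of these 4 were called higher, against 0.29 percent of all genes tested. Cd163 and Itgad were not tested, as their probes were not above background throughout any group. Spic, the transcription factor that marks the iron-recycling macrophages of the splenic red pulp, read −0.152, −0.237, 0.07 and 0.0333 on control arrays a to d and 3.2, 2.89, 2.95 and 3.71 on the 50 µM arrays. Every treated array lay more than 2 log2 units above every control array, and the change was 3.26 ± 0.209 (adjusted p = 1.1e-06), or 9.58-fold. Slc40a1, the iron exporter ferroportin, stood between 0.0727 and 0.117 in the control and at 3.29, 2.65, 3.06 and 3.23 after heme-albumin, a change of 2.96 ± 0.28 (adjusted p = 4.6e-05). Hmox1, the heme oxygenase that opens the heme ring, lay between −0.0897 and −0.0265 in the control and at 2.51, 2.89 and 3.06 on 50 µM arrays b, c and d. The spot of array a was an outlier and was left out, so the change of 2.88 ± 0.184 rests on 3 treated arrays (adjusted p = 4.4e-06). A second probe of Hmox1 kept all 4 arrays, read 2.27, 2.15, 2.44 and 2.65 there, and rose by 2.51 ± 0.126.

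Other genes on the path of heme and iron moved less or stayed. Slc48a1, the transporter that moves heme out of the phagolysosome, read 1.43, 1.19, 1.1 and 1.21 after heme-albumin against −0.0754 to −0.0245 in the control, and rose by 1.28 ± 0.217 (adjusted p = 0.0032). Blvrb, the biliverdin reductase B gene, passed below 2-fold at 0.531 ± 0.0753 (adjusted p = 8e-04). Hmox1, Slc48a1 and Blvrb were the only members of 11 measured in the heme breakdown and transport list to pass, and the list median was 0.0527. Of all genes tested 2.07 percent passed as higher. The biliverdin reductase A gene Blvra was at −0.0453 ± 0.0527 and did not pass. Treml4, a receptor of splenic macrophages, rose by 1.39 ± 0.226 (adjusted p = 0.0024), with 1.56 and 1.58 on arrays a and b and 0.918 and 0.968 on c and d. With Spic, Slc40a1 and Hmox1 it makes up the called genes of the splenic iron-recycling list. The fifth, the adhesion gene Vcam1, was at 0.394 ± 0.334 and did not pass.

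The transferrin receptor gene had the largest decrease. Tfrc, whose product brings in transferrin-bound iron and whose messenger RNA is degraded when cells are iron-rich, read −3.37, −3.09, −3.32 and −3.34 after heme-albumin against −0.0109 to 0.0651 in the control. This change of −3.32 ± 0.101 (adjusted p = 1.2e-10) had the lowest adjusted p of all genes. A dimmer Tfrc probe, which read −3.49, −3.28, −0.836 and −2.4 after heme-albumin and −1.38 to −0.781 in the control, was at −1.47 ± 0.475 and not called, and its array c overlapped the control. Alas1, the first enzyme of heme synthesis, passed as lower by 0.775 on the log2 scale (−0.775 ± 0.13, adjusted p = 0.0038), with −0.864 to −0.734 on the 50 µM arrays and −0.101 to −0.00759 in the control. The other 9 measured genes of heme synthesis ran from −0.0917 to 0.144 and did not pass.

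Of 22 measured genes of iron uptake, storage and export, Slc40a1 and Tfrc were called, and with them 5 passed as higher and 1 as lower (list median 0.0382), or 3 as higher from the red channel alone and 2 as lower with the replicate letter as a block. Of all genes tested 2.07 percent passed as higher and 1.45 percent as lower. The ferritin heavy chain gene Fth1 passed at 0.389 ± 0.0732 with array a left out as an outlier (adjusted p = 0.013), whereas the light chain gene Ftl1 was at 0.317 ± 0.134 with array a of both groups left out (adjusted p = 0.33). Both metal transporters of the NRAMP family passed, Slc11a1 at 0.505 ± 0.0936 (adjusted p = 0.0063) and Slc11a2 at 0.453 ± 0.0689 (adjusted p = 0.0013), as did the mitochondrial iron importer Slc25a37 at 0.42 ± 0.0843 (adjusted p = 0.011). The iron regulatory protein genes Aco1 (−0.207 ± 0.0795) and Ireb2 (−0.0497 ± 0.108) did not pass.

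**Figure D2:**
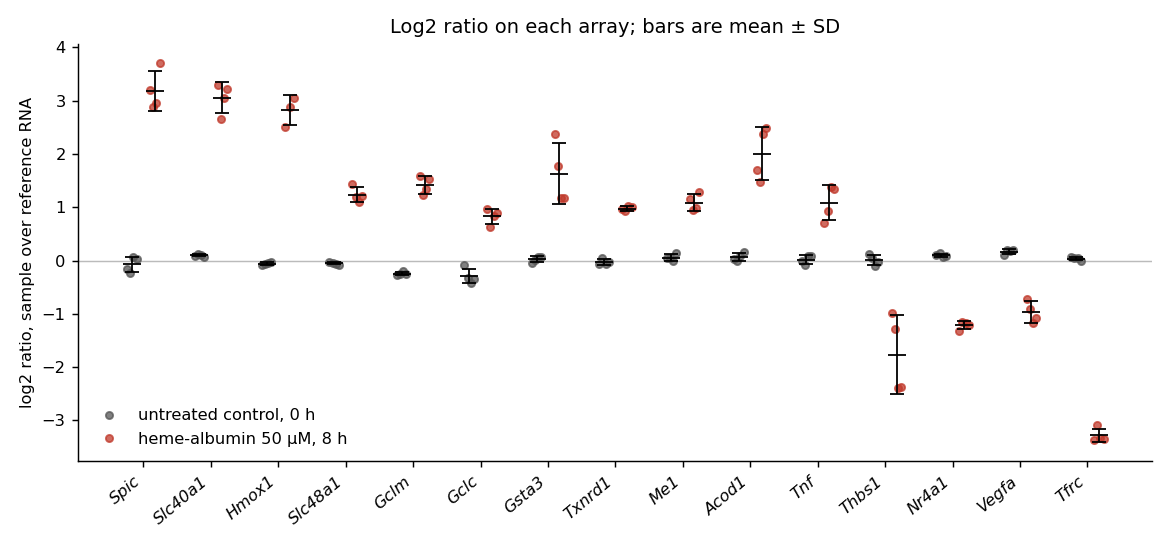
Log2 ratio of sample over reference RNA (y axis) on each array for 15 of the called genes, in grey for the untreated control at 0 h and in red for heme-albumin at 50 µM after 8 h, with black bars for the mean ± SD of 4 arrays (3 treated arrays for Hmox1). Each gene's treated arrays lie apart from its control arrays, and arrays c and d of Gsta3 and Thbs1 stand apart from a and b.

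The glutathione, thioredoxin and NADPH systems keep the cell's thiols reduced, and 6 of 14 measured genes of the first and 13 of 26 of the others passed as higher. Of all genes tested 2.07 percent did so. The promoter windows of 5 called genes are shown to place the core antioxidant response element, the site that NRF2 and BACH1 bind, in the genes that carry it and beside the genes with the largest changes. Sequences are from RefSeq on GRCm38.p6 and hold the 250 bases before an annotated start, read 5′ to 3′ on the gene's strand. Capitals mark a match to TGACNNNGC on either strand, which reads GCNNNGTCA where it lies on the other one. No overlap with another motif was looked at. Gclm is the modifier subunit of glutamate-cysteine ligase (chr3:122245307-122245556, plus strand), Gsta3 a glutathione transferase (chr1:21240335-21240584, plus strand) and Txnrd1 the cytosolic thioredoxin reductase (chr10:82858956-82859205, plus strand, 1 of 3 listed windows). Spic (chr10:88683024-88683273, minus strand) and Tfrc (chr16:32608646-32608895, plus strand, the first of 2 windows) hold no match in these windows.
Gclm: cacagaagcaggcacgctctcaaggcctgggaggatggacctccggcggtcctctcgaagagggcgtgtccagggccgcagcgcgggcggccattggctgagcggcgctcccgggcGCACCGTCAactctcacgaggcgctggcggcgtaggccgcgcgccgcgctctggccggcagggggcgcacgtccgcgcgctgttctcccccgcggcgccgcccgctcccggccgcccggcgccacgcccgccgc
Gsta3: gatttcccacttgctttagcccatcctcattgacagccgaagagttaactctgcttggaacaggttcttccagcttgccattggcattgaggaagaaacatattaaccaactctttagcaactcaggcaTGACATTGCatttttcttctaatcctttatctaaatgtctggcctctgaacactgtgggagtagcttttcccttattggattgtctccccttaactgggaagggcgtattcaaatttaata
Txnrd1: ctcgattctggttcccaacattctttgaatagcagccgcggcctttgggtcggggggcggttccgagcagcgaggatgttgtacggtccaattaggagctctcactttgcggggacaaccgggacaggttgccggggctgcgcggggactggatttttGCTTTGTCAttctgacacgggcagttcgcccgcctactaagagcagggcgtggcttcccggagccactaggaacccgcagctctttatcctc
Spic: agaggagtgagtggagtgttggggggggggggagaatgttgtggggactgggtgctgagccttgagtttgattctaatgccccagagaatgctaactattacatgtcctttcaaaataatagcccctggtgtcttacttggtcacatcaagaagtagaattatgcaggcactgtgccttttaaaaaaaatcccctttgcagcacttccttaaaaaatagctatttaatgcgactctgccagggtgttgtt
Tfrc: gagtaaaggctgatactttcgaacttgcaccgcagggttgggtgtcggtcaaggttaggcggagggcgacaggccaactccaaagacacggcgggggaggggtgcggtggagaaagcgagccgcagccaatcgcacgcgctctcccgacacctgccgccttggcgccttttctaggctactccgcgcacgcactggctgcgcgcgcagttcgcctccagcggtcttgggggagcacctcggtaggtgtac

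Windows were found for 32 of the 47 called genes, and 4 of them held the motif (12.5 percent), namely Gclm, Gsta3, Txnrd1 and, among the genes that fell, Dusp5. Of all 27018 genes with a window 11.5 percent held it, so the called genes were near the background. Among the glutathione and thioredoxin genes measured, 6 of the 16 with a window that passed as higher held a match (Gclm, Gsta3, Txnrd1, Prdx1, G6pdx and Abcc4) and 2 of the 19 that did not pass (Mgst1 and Ugdh). Genes without a window included Clec10a, Clec4n, Cyb5a, Esam, Gclc, Gpr171, Hmox1, Hp, Slc39a4, Slc40a1, Slc48a1, Sort1, Tgm2 and Thbs1.

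In the glutathione list, 6 of 14 measured genes passed, all higher, and 3 were called, with a median change of 0.575. From the red channel alone 2 passed, and without control array c or d 3 passed. Gclm and Gclc were not called from the red channel alone (adjusted p = 0.19 and 0.34 by limma). Gclm read 1.59, 1.23, 1.34 and 1.53 after heme-albumin against −0.267 to −0.204 in the control, and rose by 1.67 ± 0.185 (adjusted p = 0.00011). Its partner Gclc, the catalytic subunit that limits glutathione synthesis, read 0.963, 0.628, 0.838 and 0.891 against −0.411 to −0.0883 and rose by 1.12 ± 0.239 (adjusted p = 0.016). Gsta3 read 2.38 and 1.77 on arrays a and b but 1.18 on both c and d, and rose by 1.6 ± 0.32 (adjusted p = 0.011). It was 2.09 within the first scan day (arrays a and b) and 1.11 within the second. The transferases Gstm1 (0.83 ± 0.103) and Gstp1 (0.478 ± 0.109) and the glutathione-degrading enzyme Chac1 (0.724 ± 0.157) passed below 2-fold. The cystine transporter gene Slc7a11 was above background on 1 of 4 control arrays. Its change of 1.35 was not called (adjusted p = 0.34), though it was called higher from the red channel alone.

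In the list of thioredoxin, quinone and NADPH enzymes 13 of 26 measured genes passed, all higher, with a median of 0.456. Only Me1 and Txnrd1 were called. From the red channel alone 5 passed and 1 was called, and under normexp background correction 14 passed and 0 were called by limma, while 0 were also called without 50 µM array d. Txnrd1 read 0.96, 0.922, 1.02 and 1 after heme-albumin against −0.0703 to 0.0576 in the control, a change of 1 ± 0.109 that sits at the 2-fold threshold (adjusted p = 1e-04). Me1, the cytosolic malic enzyme that makes NADPH, rose by 1.03 ± 0.0906 (adjusted p = 1.6e-05), with 0.945 to 1.28 after heme-albumin. The other NADPH sources of the pentose phosphate pathway passed below 2-fold, G6pdx at 0.664 ± 0.0906 and Pgd at 0.681 ± 0.0901, as did the conjugate pump Abcc1 at 0.973 ± 0.0877 (adjusted p = 1.8e-05), the peroxiredoxin Prdx1 at 0.864 ± 0.153 on 3 treated arrays and the aldo-keto reductase Akr1b8 at 0.735 ± 0.0588. The common NRF2 markers Nqo1, a quinone reductase, and Srxn1, a sulfiredoxin, were at 0.548 ± 0.207 (adjusted p = 0.23) and 0.687 ± 0.194 (adjusted p = 0.077) and did not pass. Nqo1 read 1.19 and 0.895 on 50 µM arrays a and b but 0.358 and 0.372 on c and d.

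Further enzymes and transporters outside these lists rose. Aox1, an aldehyde oxidase, read 2.26, 1.69, 2.72 and 1.36 against −0.483 to 0.268 and rose by 2.12 ± 0.348 (adjusted p = 0.0025), but it was above background on 3 of 4 control arrays. Mgst2, a microsomal glutathione transferase, rose by 1.53 ± 0.178 (adjusted p = 0.00015), with 2.04 and 1.7 on arrays a and b and 1.21 on both c and d. Cyb5a, which encodes the electron carrier cytochrome b5 and is itself a heme protein, rose by 1.36 ± 0.219 (adjusted p = 0.0027). The membrane transporters Abca8b (1.33 ± 0.188, adjusted p = 0.00078) and Abcc5 (1.02 ± 0.0723, adjusted p = 2.7e-06) rose as well, and Abcc5 lay between 0.988 and 1.09 on the treated arrays. Other Abcc5 probes gave 1.06 ± 0.244, which was called, and 0.506 ± 0.0651 and 0.502 ± 0.0503, which were not. The mean of all Abcc5 probes was not called either. Slc39a4, a zinc importer, rose by 1.01 ± 0.0891 (adjusted p = 1.6e-05), while the metallothionein Mt2 passed as lower at −0.426 ± 0.0903 (adjusted p = 0.015) and Mt1 did not pass (−0.292 ± 0.132).

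Of 23 measured genes of cholesterol synthesis, 22 lay above 0, against 5785 of all 12759 genes. In this list 6 passed as higher, against 2.07 percent of all genes, and the median was 0.293. Under normexp background correction 3 passed, and 3 from the red channel alone. Among them Cyp51, a sterol demethylase, passed at 0.62 ± 0.122, Fdps at 0.467 ± 0.0683, Msmo1 at 0.363 ± 0.0918 and Fdft1 at 0.338 ± 0.0703. None of 15 LXR targets, which include the cholesterol exporters, passed (median −0.148), with Abca1 at −0.328 ± 0.187 and Apoe at −0.318 ± 0.132, and 1 passed as lower with the replicate letter as a block.

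Of 22 measured inflammatory cytokines and mediators 2 were called higher and 1 lower, against 0.29 and 0.0784 percent of all genes. The list median was −0.0205. Acod1, the enzyme that makes itaconate, read 1.71, 1.48, 2.37 and 2.48 after heme-albumin against −0.00397 to 0.158 and rose by 1.94 ± 0.18 (adjusted p = 4.3e-05). Tnf, the gene of tumor necrosis factor, read 0.697, 0.94, 1.38 and 1.34 against −0.0882 to 0.0897, a change of 1.07 ± 0.136 or 2.1-fold (adjusted p = 0.00034). In both genes arrays c and d lay above a and b, and the change of Tnf was 0.862 within the first scan day and 1.27 within the second. Acod1 was not called from the red channel alone (2.05, adjusted p = 0.14 by limma). Tnf lay under 2-fold with normexp background correction (0.762) and without background subtraction (0.889). Il1b (−0.0992 ± 0.11), Nos2 (−0.127 ± 0.167), Il1rn (−0.194 ± 0.0949) and Il18 (−0.132 ± 0.0845) did not pass, and the oncostatin gene Osm passed as lower at −0.538 ± 0.12 (adjusted p = 0.021). Ptgs2, Csf2, Csf3, Il1a and Edn1 were not well above background on any array of either group, and Il6 was so on 2 treated arrays alone.

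None of 22 measured chemokines was called. Against 1.45 percent of all genes, 2 of the 22 passed as lower, Cx3cl1 (−0.657 ± 0.154) and Cxcl14 (−0.267 ± 0.0644). Under normexp background correction, from the red channel alone and without any 1 of 6 arrays (control c and d and the 4 of the 50 µM group) 0 passed as lower by limma. The neutrophil attractants Cxcl1 (1.47 ± 0.452, adjusted p = 0.11), Cxcl2 (1.04 ± 0.63, adjusted p = 0.53) and Cxcl3 (1.96 ± 0.568, adjusted p = 0.087) had large changes with wide spread, and they were above background on 1, 2 and 0 control arrays. Cxcl2 read 1.86 and 1.45 on control arrays c and d against 0.0339 and −0.261 on a and b, and 2.8 and 2.93 against 0.692 and 0.822 after heme-albumin. With the replicate letter as a block these 3 genes were called higher (adjusted p = 0.0032, 0.017 and 0.031). The monocyte attractants Ccl2 (−0.887 ± 0.424) and Ccl7 (−1.22 ± 0.598) did not pass, and Cxcl10 was at 0.334 ± 0.205.

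Of 30 measured genes of the NF-kB pathway and its feedback inhibitors 28 lay above 0, against 5785 of all 12759 genes. In this list 11 passed as higher, against 2.07 percent of all genes, none was called, and the median was 0.327. Tnfaip3, the ubiquitin-editing inhibitor A20, was at 0.978 ± 0.238 (adjusted p = 0.035), the pattern recognition receptor gene Tlr2 at 0.912 ± 0.118 (adjusted p = 0.00039), the endonuclease gene Zc3h12a at 0.902 ± 0.135 (adjusted p = 0.0011) and the inhibitor gene Nfkbia at 0.79 ± 0.108 (adjusted p = 0.00064). Relb, a subunit of the noncanonical arm, read 0.558 to 0.705 after heme-albumin against −0.0822 to 0.0287 and passed at 0.65 ± 0.0441 (adjusted p = 1.8e-06). The subunit genes Rela (0.078 ± 0.048) and Nfkb1 (0.186 ± 0.102) did not pass. Under normexp background correction 7 of the 30 passed, and from the red channel alone 4.

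Of 40 measured interferon-stimulated genes 39 lay below 0, while 5785 of all 12759 genes lay above 0. In this list 28 passed as lower, against 1.45 percent of all genes, none was called, and the median was −0.448. Usp18, which damps the interferon receptor, read −0.939, −1.12, −1.26 and −0.933 after heme-albumin against −0.178 to −0.0271 and was at −0.97 ± 0.113 (adjusted p = 0.00015). Rsad2, the antiviral viperin, read −0.595, −0.648, −0.925 and −0.604 against 0.154 to 0.236 and was at −0.871 ± 0.101 (adjusted p = 0.00015). The Ifit genes passed at −0.845 ± 0.167 (Ifit1), −0.902 ± 0.134 (Ifit2) and −0.868 ± 0.0847 (Ifit3), and Irf7, the factor that amplifies interferon production, at −0.391 ± 0.0855. Irf1, a factor induced by interferon gamma, was at −0.11 ± 0.155 and did not pass. The list median was between −0.487 and −0.435 under the other ways of computing the ratio, but 4 genes passed from the red channel alone and 18 within the second scan day. Near-identical family members can share probe signal, so single Ifit and Oas genes are uncertain.

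**Figure D3:**
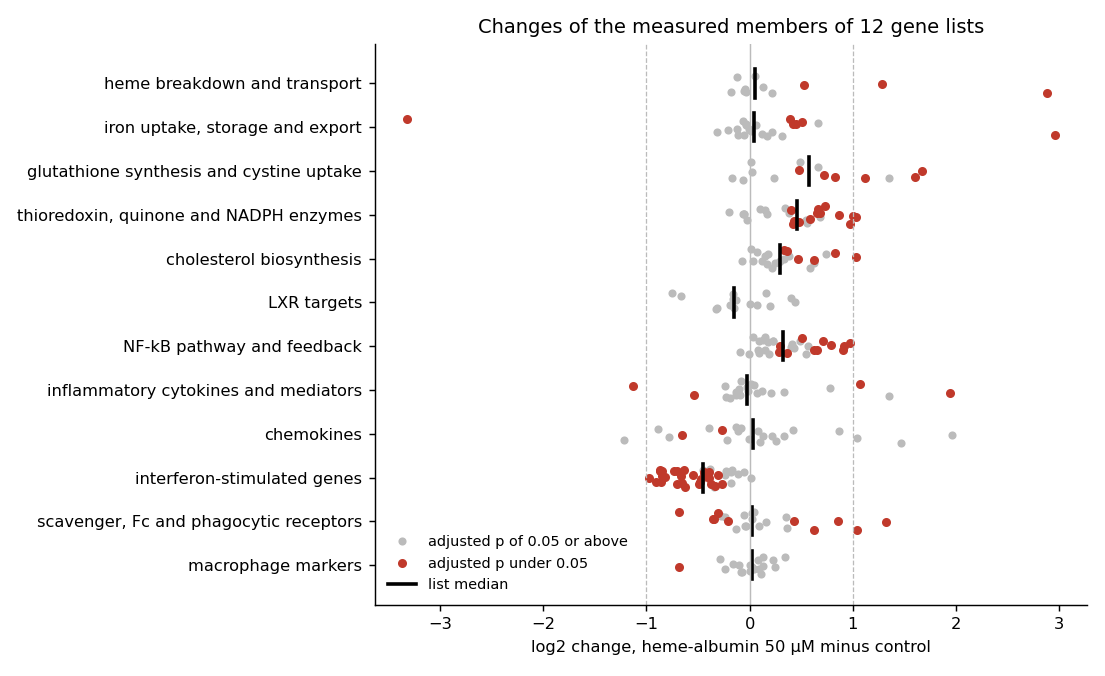
Log2 change at 50 µM against control (x axis) of each measured gene in 12 lists, with genes that passed in red, the others in grey, the list median as a black bar and dashed lines at 2-fold. The interferon-stimulated genes lie below 0 in 39 of 40 cases without passing the 2-fold line, and the glutathione and thioredoxin lists have medians of 0.575 and 0.456.

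Surface receptors of myeloid cells were among the called genes. The formyl peptide receptors Fpr1 and Fpr2, which sense bacterial and mitochondrial peptides, rose by 1.55 ± 0.17 (adjusted p = 1e-04) and 1.05 ± 0.146 (adjusted p = 0.00067). Fpr2 was above background on 3 of 4 control arrays. Under normexp background correction neither gene was called, with changes of 0.749 for Fpr1 and 0.416 for Fpr2. When no background was subtracted, the changes were 0.94 and 0.57, both under 2-fold. Fpr2 also lost its call when only red signals were used (0.835, adjusted p = 0.088 by limma). Gpr84, a receptor for medium-chain fatty acids, read 1.86, 1.54, 1.81 and 2.02 against 0.146 to 0.444 and rose by 1.51 ± 0.181 (adjusted p = 0.00018). Hp, which encodes the hemoglobin-binding protein haptoglobin, rose by 1.07 ± 0.127 (adjusted p = 0.00018), with 1.31 and 1.09 on arrays a and b and 0.71 and 0.628 on c and d. The lectin receptors Clec4n (Dectin-2, 1.32 ± 0.298, adjusted p = 0.021), Clec10a (1.04 ± 0.143, adjusted p = 0.00067) and Clec4b1 (1.03 ± 0.207, adjusted p = 0.011) rose. A second Clec4b1 probe was at 0.653 ± 0.18 and did not pass (adjusted p = 0.08 by limma). Clec4b1 was not called from the mean of its probes or under normexp background correction (0.896). Clec4n read 1.69 and 1.51 on arrays a and b and 1.02 on both c and d. In the list of scavenger, Fc and phagocytic receptors 5 of 23 measured genes passed as higher and 5 as lower (median 0.0191), against 2.07 and 1.45 percent of all genes. Leaving out 1 of the 8 arrays gave 2 to 4 higher and 2 to 4 lower, the red channel alone 2 and 1, normexp background correction 3 lower, and each scan day by itself 1 lower. The high-affinity immunoglobulin receptor Fcgr1 passed as lower at −0.685 ± 0.0602 (adjusted p = 1.6e-05), with −0.741 to −0.657 after heme-albumin, and so did the complement genes C1qb (−0.357 ± 0.0793) and C1qc (−0.309 ± 0.0767).

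The remaining genes that rose have varied roles. Plpp3, a phosphatase of signalling lipids, read 2.05, 1.85, 1.99 and 1.98 against −0.153 to 0.221 and rose by 1.89 ± 0.189 (adjusted p = 4.6e-05). Dnmt3l, a cofactor of DNA methyltransferases, rose by 1.83 ± 0.263 (adjusted p = 0.00088), the ubiquitin ligase Rnf183 by 1.54 ± 0.327 (adjusted p = 0.015), the endothelin receptor Ednrb by 1.34 ± 0.168 (adjusted p = 0.00029) and the sorting receptor Sort1 by 1.07 ± 0.111 (adjusted p = 6.5e-05). Jag1, a Notch ligand (1.03 ± 0.131), and Zic1, a zinc finger factor (1.04 ± 0.198), rose just past 2-fold. Second probes gave 0.714 for Sort1 and 1.67 for Ednrb.

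Some called increases are of dim probes, whose size is poorly fixed. Wfikkn2, a secreted protein with protease inhibitor domains, and Ceacam19, of a cell adhesion family, had red signals too dim to count as detected on each of the 4 control arrays. Their fitted changes were 2.56 ± 0.47 and 1.87 ± 0.358, but only a bound of at least 1.3-fold and at least 1.88-fold can be given (adjusted p = 0.0059 and 0.0081). Such a bound sets the mean red signal of the treated arrays against the control arrays' own signal or the lowest signal well above background, whichever is higher. Slc22a23, an orphan solute carrier, rose by 2.69 ± 0.445 with 2 of 4 control arrays above background (adjusted p = 0.0026). Esam, an adhesion molecule of endothelial junctions, read 2.98, 1.97, 1.84 and 1.14 and rose by 1.91 ± 0.339 with 3 of 4 (adjusted p = 0.0047). The other endothelial markers measured did not pass (Eng −0.127, Kdr −0.0425, Cdh5 0.0378, Vwf 0.124, Pecam1 0.342), and Tek, Tie1 and Emcn were below background.

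Among the genes that fell after Tfrc, Thbs1, the matrix protein thrombospondin, read −0.98 and −1.29 on 50 µM arrays a and b but −2.4 and −2.38 on c and d, against −0.101 to 0.116 in the control. Its change was −1.77 ± 0.442 (adjusted p = 0.039), or −1.22 and −2.33 within the scan days. Nr4a1, an orphan nuclear receptor of the early response, read −1.32, −1.15, −1.18 and −1.2 against 0.0653 to 0.136 (−1.31 ± 0.29, adjusted p = 0.019). Vegfa, the vascular growth factor, fell on both its probes, at −1.13 ± 0.135 (adjusted p = 0.00018) and −1.55 ± 0.157. Tgm2, a transglutaminase, fell with little spread, from −1.2 to −1.07 on the treated arrays (−1.07 ± 0.105, adjusted p = 4.3e-05), and its second probe was at −1.01. Slco2b1, an uptake carrier of organic anions, read −1.25, −0.941, −0.911 and −0.667 (−1.06 ± 0.144, adjusted p = 0.00063). From the red channel alone Vegfa (adjusted p = 0.051 by limma), Slco2b1 (adjusted p = 0.21) and Tgm2 (−0.905, under 2-fold) were not called. Of the 10 genes called lower 3 kept the call there, under normexp background correction and without background subtraction, namely Tfrc, Thbs1 and Nr4a1.

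The actin-severing protein Scin read −1.86 and −1.73 on arrays a and b and −0.859 and −0.928 on c and d (−1.33 ± 0.231, adjusted p = 0.0038). Scin was not called from the red channel alone (adjusted p = 0.96 by limma) or under normexp background correction (−0.678). The same held for Gpr171 (adjusted p = 0.17 and a change of −0.459). Gpr171, a receptor, was at −1.02 ± 0.208 (adjusted p = 0.012) and Dusp5, a phosphatase of ERK kinases, at −1.01 ± 0.248 (adjusted p = 0.036) with 3 of 4 arrays of either group above background. Ifi213, of an interferon-induced family, read −1.62, −0.924, −2.08 and −0.403 and was above background on 1 treated array (−1.54 ± 0.395, adjusted p = 0.046). With the replicate letter as a block Ifi213 was not called (adjusted p = 0.083). Plau, the urokinase gene, read −1.79, −1.1, −0.389 and −0.485 against 0.186 to 0.465 and was at −1.26 ± 0.353 without passing (adjusted p = 0.073), and with the block it was called lower (adjusted p = 0.017).

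Between the doses, 106 genes were called (0.831 percent), 81 higher at 200 µM (0.635 percent) and 25 lower (0.196 percent). Of the 37 genes called higher at 50 µM 19 were called higher still at 200 µM, and of the 10 called lower 3 were called lower still. Both comparisons use the same 50 µM arrays, so these counts are not independent of the choice of genes. Spic had mean ratios of −0.0715, 3.19 and 5.71 in the control, at 50 and at 200 µM, a further rise of 2.52 ± 0.209 (adjusted p = 4.1e-06). Fpr2 had means of 0.185, 1.24 and 3.58, so that more of its rise lay between the doses (2.35 ± 0.146), and the same held for Ednrb with 0.381, 1.72 and 3.75. Hmox1 had −0.0574, 2.82 and 3.64 (0.816 ± 0.184, not called) and Tfrc 0.0384, −3.28 and −4.02 (−0.738 ± 0.101, not called), so most of their change was present at 50 µM. Thbs1 went from −1.76 to −4.3 (−2.53 ± 0.442) and Slco2b1 from −0.942 to −2.71 (−1.77 ± 0.144). Scin had −0.0115, −1.35 and −1.13 and did not differ between the doses beyond the spread (0.211 ± 0.231, adjusted p = 0.71).

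Against LPS 3910 genes were called (30.6 percent), 2132 higher at 50 µM (16.7 percent) and 1778 lower (13.9 percent), so a call against LPS is common. Of the 37 genes that rose 16 were higher at 50 µM than after LPS and 8 lower, again over the same 50 µM arrays. Acod1, Gpr84, Fpr2, Hp and Tnf were among the genes higher after LPS. Acod1 had a mean ratio of 2.01 at 50 µM and 6.3 after LPS (−4.29 ± 0.195), Gpr84 1.81 and 7.06, Fpr2 1.24 and 5.77, Hp 0.935 and 4.26 and Tnf 1.09 and 4.18 (−3.09 ± 0.136, adjusted p = 2.6e-11). In the iron list 2 of 22 measured genes were called higher at 50 µM than after LPS and 9 lower, in the glutathione list 6 of 14 higher and 3 lower, and in the thioredoxin list 5 of 26 higher and 2 lower. Single genes higher at 50 µM were Slc40a1 at 3.06 against −2.26 (5.32 ± 0.28, adjusted p = 5.2e-10), Sort1 at 1.17 against −3.49, Gsta3 at 1.63 against −0.891 and Gclc at 0.83 against −0.885, while Txnrd1 (−0.505, adjusted p = 0.00064) lay lower at 50 µM. Hmox1 was at 2.82 and 2.59 (0.233 ± 0.197, adjusted p = 0.29) and Treml4 at 1.26 and 1.17, whereas Spic was higher after LPS (−2.4 ± 0.209). Of the 10 genes that fell 9 were lower at 50 µM than after LPS, for example Tfrc (−3.43 ± 0.101), and Slco2b1 was higher, at −0.942 against −5.23.

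**Figure D4:**
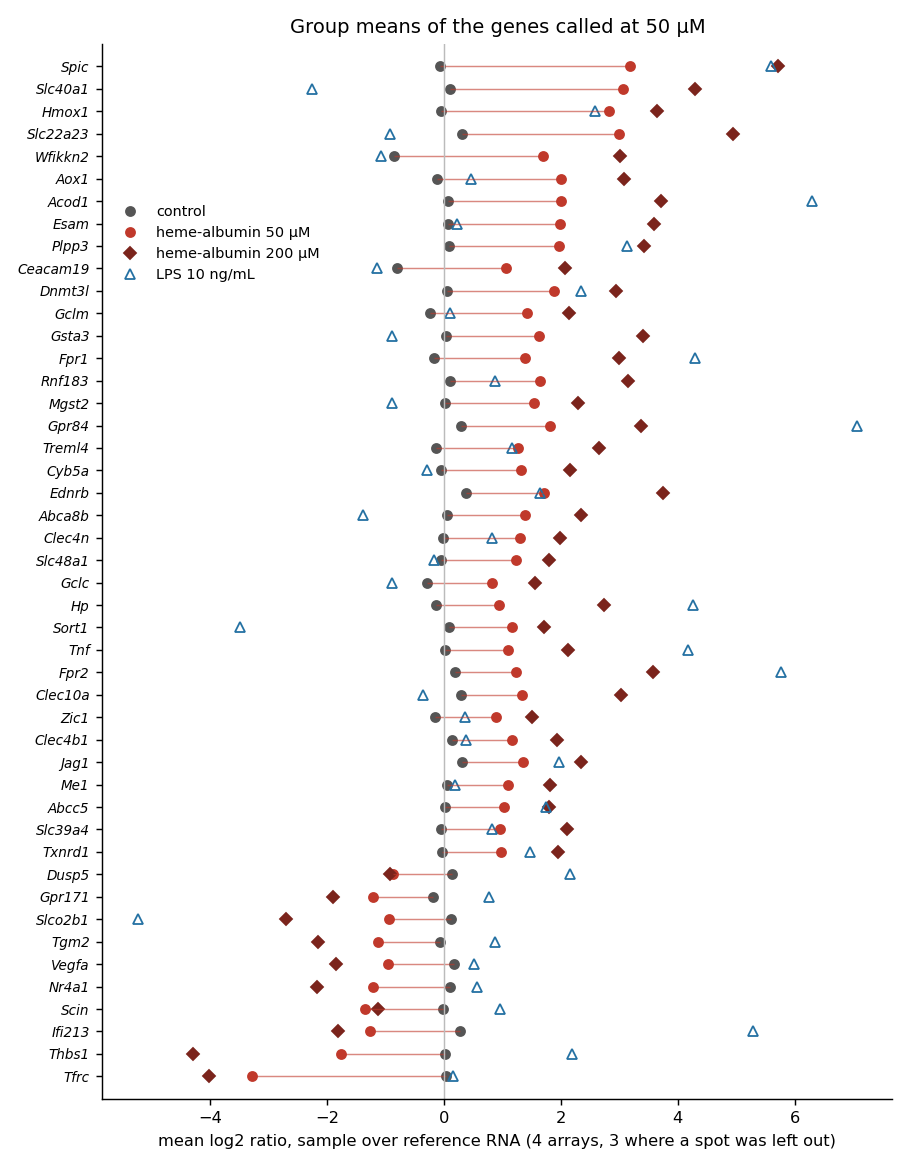
Mean log2 ratio of sample over reference RNA (x axis) of 46 of the genes called at 50 µM (y axis, by size of change) in the control, both heme-albumin doses and LPS, with a line from the control to the 50 µM mean. Diamonds of the 200 µM group lie beyond the 50 µM circles in most genes, and the LPS triangles lie on either side.

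Several lists held no called gene. Of 34 cell cycle genes none passed (median −0.041), of 14 housekeeping genes none (median −0.0304), of 17 MHC class II and antigen presentation genes none (median −0.0668) and of 12 arginine and polyamine genes none (median −0.0925), though 2 of these passed as lower with the replicate letter as a block and 1 MHC gene did so without background subtraction. Single members passed below 2-fold in the lists of heat shock proteins (Hspa1a), endoplasmic reticulum chaperones (Herpud1), proteasome subunits (Psma5) and p53 targets (Fas at 0.654), and 2 of 30 in the integrated stress response (Atf4 and Chac1). Leaving out 1 of the 8 arrays left 0 to 1 of the last list, and 0 of these lists' genes passed from the red channel alone by limma. In the hypoxia and glycolysis list Vegfa was called and Ankrd37 (−0.841 ± 0.0988) and P4ha1 (−0.341 ± 0.0848) passed as lower, while the glucose transporter Slc2a1 passed as higher at 0.479 ± 0.0782. Of the NRF2 and BACH regulators the small Maf gene Mafg passed (0.545 ± 0.115, adjusted p = 0.015). Nfe2l2, which encodes NRF2, was at 0.0362 ± 0.0423, Bach1 at 0.0974 ± 0.14 and Keap1 at 0.124 ± 0.103.

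Markers of other cells were measured in part. No member passed by limma among 6 of 10 embryonic stem cell, 4 of 10 hematopoietic progenitor, 5 of 10 neutrophil, 2 of 7 mast cell, 6 of 10 dendritic cell, 4 of 11 lymphocyte and 4 of 12 erythroid and megakaryocyte markers measured, and their list medians lay between −0.121 and 0.07. With the replicate letter as a block 1 progenitor marker passed as higher. Of 4 fibroblast markers measured among 10 the actin gene Acta2 passed at 0.711, and of 6 endothelial markers among 9 Esam was called (list median 0.0811). Macrophage markers had a median of 0.0191 and 1 of 19, Fcgr1, passed as lower, and 2 passed as higher with the block. In bulk samples fewer cells of a type and less RNA per cell cannot be told apart.

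Probes without a gene name here added to the response. Of 21458 probes tested one by one 67 were called (0.312 percent), 11 of them unnamed, 8 higher and 3 lower. A_55_P2108526, at 3.16, 3.11, 3.1 and 3.07 on the treated arrays, and A_55_P2272748, at 2.76, 2.03, 0.527 and 2.58, were above background on no control array. For them only bounds of at least 5.15-fold and at least 2.64-fold can be given, computed as for Wfikkn2. A_55_P2135064 (1.9 ± 0.299) was above background on 2 of 4 control arrays. The largest decreases were A_55_P2040485 (−1.23 ± 0.209), A_51_P514085 (−1.07 ± 0.103) and A_55_P2039230 (−1.02 ± 0.224).

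How many genes were called depended on the signal processing. With the normexp correction, which keeps dim signals from being inflated, 19 of the 47 genes were called (15 higher and 4 lower), and without background subtraction 28 were called. Both settings also began from median spot signals and redid the dye normalisation by loess, and normexp added an offset of 50. The effects of these steps and of the background correction cannot be told apart here. Across the 21 settings that changed the signal, the gene summary, the block or the arrays used, 10 of the 47 were called in each, namely Spic, Slc40a1, Hmox1, Dnmt3l, Gsta3, Mgst2, Gpr84, Abca8b, Slc48a1 and Tfrc. Bright genes kept their size under normexp (Hmox1 2.95, Slc40a1 2.91, Thbs1 −1.72, Gclm 1.54), Spic (2.23) and Tfrc (−2.32) kept a large change, and dim ones shrank, to 0.221 for Wfikkn2, 0.215 for Ceacam19, 0.824 for Slc22a23, 0.733 for Esam, −0.169 for Dusp5 and −0.293 for Ifi213. Each of the 47 changed in the same direction within both scan days, and 28 did so at least 2-fold on each. The green reference channel alone gave 0 called genes between the 2 groups of arrays by limma, with 82 genes at an unadjusted p under 0.05. That is fewer than a share of 0.05 of the 12759 genes, so the 0 calls do not show that the reference signals were equal. The largest green difference among the 47 was 0.628 in size (Wfikkn2).

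The call of 19 of the 47 genes was lost when 1 array was left out. In most of them the change then lay just under 2-fold and still passed. Examples without 50 µM array a are Hp (0.941), Slc39a4 (0.93), Sort1 (0.985), Abcc5 (0.999) and Slco2b1 (−0.958), without array c Fpr2 (0.985) and without array d Me1 (0.97). Tnf lay between 0.971 and 0.986 without array c or d, Zic1 between 0.973 and 0.997 without array a or b, Jag1 between 0.965 and 0.966 without control array a or 50 µM array c, and Gpr171 between −0.986 and −0.958 without control array c or 50 µM array d. Txnrd1 lay between 0.985 and 0.998 without control array a, c or d or 50 µM array c or d.

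In 6 genes the adjusted p by limma rose past the threshold instead. It was 0.051 to 0.08 for Clec4n without any 1 control array or 50 µM array a or b, and 0.05 to 0.057 for Gclc without control array b, c or d or 50 µM array a or d. Nr4a1 had 0.053 to 0.061 without control array b, c or d or 50 µM array a, c or d, and Thbs1 had 0.053 to 0.14 without any 1 control array or 50 µM array b, c or d. Dusp5 had 0.064 to 0.13 without control array a, b or c or 50 µM array a, b or d, and Ifi213 0.07 to 0.16 without any 1 control array or 50 µM array a, b or c.

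**Figure D5:**
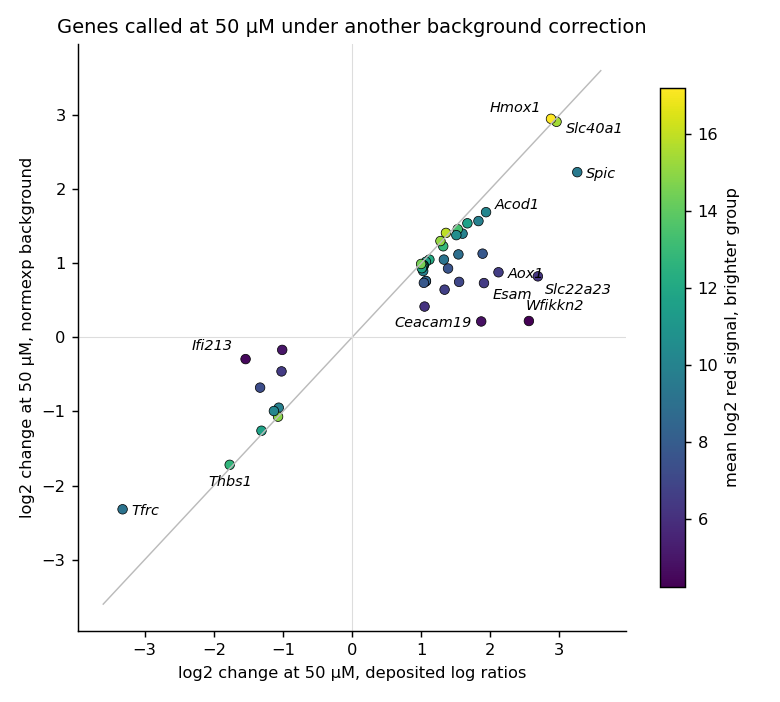
Log2 change at 50 µM of the 47 called genes from the deposited log ratios (x axis) and after normexp background correction (y axis), with colour for the mean log2 red signal in the brighter group and a line where both are equal. Bright genes such as Hmox1 and Slc40a1 lie on the line, and dim ones such as Wfikkn2 (2.56 and 0.221) lie towards 0.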

How the data were processed

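Total RNA was measured on 16 two-colour Agilent arrays of 44397 spots. Per the file headers, the deposited scanner output was written by version 10.7.3.1 of Agilent Feature Extraction and holds background-subtracted, dye-normalised log10 ratios of red over green. Per the labels, red was the sample and green the untreated reference, and the authors put the log10 ratios into an ANOVA without further normalization. The deposited value table equals these ratios (largest difference 0). The deposited red and green intensity columns, linear signals per the file headers, were used for the background flags and the alternatives.

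Ratios were multiplied by log2(10). Control spots and outlier spots (188 to 690 per array) were left out, and spots of a probe were averaged. A probe was tested if the software flagged its red signal as well above background throughout 1 or more groups, and a gene took its brightest such probe. Names came from RefSeq (GRCm38.p6) by accession: 27234 of 39429 probes matched and 12195 did not. limma 3.58.1 in R 4.3.3 fitted a mean per group on all 16 arrays (lmFit, eBayes, Benjamini-Hochberg), and its scripts were tested on simulated data. The rule for named genes took the called genes with the largest changes against control, 200 µM or LPS, called dim genes with their bound, a set of heme, iron and inflammation genes, up to 4 members of each gene list, called ones first and then by size, and up to 3 unnamed called probes each way. The remaining called genes and other list members were named after their values were seen. The genes and lists were chosen with earlier results of these data known. A few genes covered by this rule were left unreported in the text.

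Replicate letters pair the samples: deviations from the group means correlated between control and 50 µM arrays of the same letter at 0.297, 0.282, 0.219 and 0.231, and each control array correlated best with its own letter. The letter is also the slide, and letters a and b were scanned on 1 day and c and d on another. Alternatives changed the background correction, centring, channel, filter, probe summary, block, scan day and arrays. The number of arrays limits the precision.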

Additional observations from a re-analysis of the deposited data

Results flagged for a closer look

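In 360 groups of 4 arrays of the named genes, 15 held 1 array far from the other 3 (4.17 percent), and chance gives about 1 in 20. Of these, 2 were in called genes. Ceacam19 read −1.38 on control array b against −0.677 to −0.55 on the others, and Slc39a4 read 1.21 on 50 µM array a against 0.848 to 0.904.

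Among control arrays Cd80 (0.0185 on a, others −0.222 to −0.215), Nanog (0.0145 on a, others 0.187 to 0.211) and Psmb5 (0.0302 on a, others 0.138 to 0.154) stood apart on array a. Sqle (−0.0372, others −0.233 to −0.224) and Slc2a1 (0.428, others 0.27 to 0.293) stood apart on array b. Nfe2 (0.211, others −0.0264 to −0.000587) and Cd3e (0.163, others 0.0177 to 0.0412) stood apart on array c.

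Among 50 µM arrays Bach2 stood apart on array a (−0.607, others −0.442 to −0.42) and Ankrd37 on array d (−0.722, others −0.896 to −0.875). On array c the genes were Ndrg1 (0.395, others 0.28 to 0.292), Abcb10 (0.138, others 0.0274 to 0.0422), Rsad2 (−0.925, others −0.648 to −0.595) and Cd4 (−0.172, others 0.000812 to 0.00849).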

How the results depend on the processing

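At 50 µM against control the 47 calls became 19 with normexp background, 28 with no background subtraction, 166 at 1.5-fold, 449 with no fold filter and 0 from the green channel alone, an alternative chosen after seeing the data (82 genes at an unadjusted p under 0.05). Between 200 and 50 µM the 106 calls became 31 with normexp and 70 with no background subtraction. The other alternatives stayed within 1.5 times of each count. With the replicate letter as a block 54 genes were called at 50 µM, 46 of them shared, and 121 and 3918 in the comparisons with 200 µM and LPS. Leaving out 1 array gave 38 to 45 calls at 50 µM, 89 to 120 between the doses and 3751 to 4039 against LPS. No named gene with a call reversed in 3366 combinations of gene and setting. Ifi213 was called in 6 and Dusp5 in 7 of 21 settings, Txnrd1 in 12 and Clec4n and Thbs1 in 13. Of the named genes not called, 12 were called in at least 1 setting. The median of the heme breakdown list turned to −0.0265 with normexp and −0.027 without background subtraction. Signal near background limits the size of changes in dim probes.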

Other observations

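Some gene families outside the lists were picked after their values were seen and are given as values. Of all genes tested 2.07 percent passed as higher and 1.45 percent as lower. The 7 measured Clec4 lectin genes passed as higher, from 0.323 ± 0.0605 (Clec4a3) to 1.32 ± 0.298 (Clec4n), and near-identical members may share probe signal. Nr4a2, a relative of Nr4a1, passed as lower at −0.831 ± 0.142 (adjusted p = 0.0036 by limma). Of the eosinophil-associated ribonuclease genes Ear2 (0.93 ± 0.0733) and Ear10 (0.852 ± 0.147) passed as higher, while Ear1 (0.914 ± 0.368) and Ear6 (−0.129 ± 0.252) did not pass. Of 9 measured Ifi200 genes, Ifi204 (−0.487 ± 0.0847), Ifi211 (−0.68 ± 0.0852) and Ifi213 passed as lower.

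Further single genes passed below 2-fold. The iron-binding pirin gene Pir was at 0.949 ± 0.0604 (adjusted p = 1.1e-06 by limma), the reductase Ptgr1 at 0.792 ± 0.12, the transferase Gstm3 at 0.836 ± 0.115 and the NAD kinase Nadk at 0.531 ± 0.0953. The decoy interleukin-1 receptor Il1r2 was at −0.794 ± 0.177, the purinergic receptor P2ry12 at −0.558 ± 0.119 and Tgfb3 at −0.754 ± 0.0838. Among phosphodiesterases Pde3b (−0.783 ± 0.133) and Pde7b (−0.81 ± 0.166) passed as lower and Pde8b (0.516 ± 0.083) as higher.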
